A study of Homo sapiens with 15 samples.

Results

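The genes described here are 9 transcripts of secreted and membrane-bound serine protease control: 6 tissue kallikreins (KLK5, KLK6, KLK7, KLK8, KLK10 and KLK11), the secretory leukocyte protease inhibitor SLPI, and the Kunitz-type inhibitors SPINT1 and SPINT2. They were taken by symbol from the 11963 genes that Affymetrix arrays measured in MCF-10A, a human breast epithelial cell line that is immortal but does not form tumours. All 9 were on the arrays, and none was removed by a filter. Where several probe sets named a gene, the one with the highest mean over the 15 arrays stood for it. KLK10 was the only one of the 9 with a second probe set.

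The study altered p63, a p53-related transcription factor needed by basal and squamous epithelia, and took total RNA 48 hours after retroviral or adenoviral infection. The knockdown arm held 2 arrays each of an shRNA against the DNA-binding domain that all p63 isoforms carry (shDBD), an shRNA against the isoforms with the transactivating domain (shTA), and an shRNA vector control. The overexpression arm held 3 arrays each of the isoform ΔNp63α, the isoform TAp63γ, and an overexpression vector control. All groups are MCF-10A cells that received a virus, and the labels do not say which virus served which arm. The replicates are called biological, with no word on separate infections, and the p-values cover only the spread among these samples, which may be technical.

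Tissue kallikreins are secreted serine proteases made as inactive precursors, and their genes lie side by side in a single cluster on chromosome 19. In the upper epidermis, KLK5, KLK7 and KLK8 form an activation cascade that cleaves the proteins of cell junctions and lets dead cells shed. SLPI, which blocks leukocyte elastase and also KLK7, is an abundant product of mucosal and glandular epithelia. SPINT1 and SPINT2 are membrane-anchored inhibitors that restrain matriptase, prostasin and the activators of hepatocyte growth factor.

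Values are log2 expression, made by the authors with RMA, and differences are on that scale. The median of an array was 7.189 to 7.213 for knockdown and 6.951 to 6.983 for overexpression. For that reason no group of one arm is tested against a group of the other, and the arms were handled as 2 separate normalizations. Where levels of both arms are set side by side below, that is an untested description. The tests are not fully separate, because the spread of each gene was estimated from both arms together. The median residual SD was 0.0821 for knockdown and 0.113 for overexpression. The p-values of each arm therefore rest partly on the spread of the other. Replicate arrays correlated at 0.9925 or more over all probe sets. The 6 measured epithelial and basal markers (CDH1, EPCAM, KRT8, KRT18, KRT5 and KRT14) averaged between 9.71 and 13.61 over the arrays. Of 11 fibroblast, immune and endothelial markers, 9 were below the median of every array; the exceptions were COL1A1 and CD14. A change is called where limma's adjusted p is under 0.05.

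Over all 6 comparisons, 22 of 54 tests of the 9 genes were called, and every gene but KLK6 was called at least once. These tests share arrays, and the share of all genes called at least once was not counted. KLK10 and SLPI had the largest changes. Of the 9, 6 were called with TAp63γ, where 43.4% of all genes were called, and 4 with ΔNp63α, where 28.9% were. With shDBD 3 were called, where 21.3% of all genes were, and with shTA 1, where 2.29% were. Between the isoforms 5 were called, where 39.8% of all genes were, and between the hairpins 3, where 18.4% were.

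Upstream sequence was matched by symbol to RefSeq promoter windows of the build GRCh38.p14. It was found for 6 of the 9 genes (KLK5, KLK6, KLK7, KLK10, KLK11 and SPINT1), with 11 start sites in all. The 250 bases before a start site are printed for KLK10 and KLK5, which were higher with both isoforms. They are also printed for KLK7, which was called in neither test of an isoform against its vector, and SPINT1, higher with TAp63γ. KLK10, KLK7 and SPINT1 had further start sites, whose windows are not printed. Capitals mark the only match to the p53-family decamer, the motif bound by p53 and p63, searched on both strands. The match lies before start site 2 of SPINT1, and the window of its start site 1 (chr15:40843798-40844047) had 0 matches.
KLK10, chr19:51019710-51019959, minus strand: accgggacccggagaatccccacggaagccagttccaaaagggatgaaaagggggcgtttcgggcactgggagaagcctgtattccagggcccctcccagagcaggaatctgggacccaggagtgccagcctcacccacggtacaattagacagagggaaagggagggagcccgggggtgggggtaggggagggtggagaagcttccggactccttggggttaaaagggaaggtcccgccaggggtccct
KLK5, chr19:50953039-50953288, minus strand: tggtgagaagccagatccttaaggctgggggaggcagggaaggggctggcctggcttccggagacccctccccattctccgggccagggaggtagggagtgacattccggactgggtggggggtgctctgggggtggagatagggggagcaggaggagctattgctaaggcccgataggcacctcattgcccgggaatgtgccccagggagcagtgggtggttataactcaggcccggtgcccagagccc
KLK7, chr19:50983816-50984065, minus strand: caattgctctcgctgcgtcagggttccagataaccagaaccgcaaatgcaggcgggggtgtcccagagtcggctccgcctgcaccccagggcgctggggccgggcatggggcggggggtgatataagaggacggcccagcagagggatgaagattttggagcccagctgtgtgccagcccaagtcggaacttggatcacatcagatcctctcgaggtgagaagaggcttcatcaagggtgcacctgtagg
SPINT1, chr15:40844227-40844476, plus strand: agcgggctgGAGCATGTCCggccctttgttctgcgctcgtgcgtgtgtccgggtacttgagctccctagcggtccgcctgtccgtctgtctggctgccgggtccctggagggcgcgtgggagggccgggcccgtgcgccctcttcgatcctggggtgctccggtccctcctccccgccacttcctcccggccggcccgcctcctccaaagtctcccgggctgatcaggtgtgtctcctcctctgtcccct
The decamer matched in 1 of the 11 windows, against 5.57% of 35114 windows of the same length. The AP-1 motif TGANTCA and the motif TATAAA, also searched on both strands, matched in 0 of the 11. They matched in 6.57% and 10.7% of all windows. A match describes letters in a window and is not a measured site.

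Overexpression set cells with an added isoform beside cells with an empty vector. KLK10, a kallikrein first described for its expression in normal mammary epithelial cells, changed most. It read 8.12, 8.03 and 7.98 with ΔNp63α, 9.77, 9.79 and 9.86 with TAp63γ, and 7.01, 7.09 and 7.13 with the vector. The 3 groups did not overlap, and TAp63γ was highest. The change was 0.97 ± 0.0835 (SE, n = 3 per group; 1.96-fold, adjusted p = 3.76e-07) for ΔNp63α and 2.73 ± 0.0835 (6.65-fold, adjusted p = 9.82e-13) for TAp63γ. Of all genes, 0.577% had a larger change in either direction with TAp63γ.

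SLPI ran in the same order, from an already high level. SLPI read 13.08, 12.92 and 12.94 with ΔNp63α, 14.13, 14.23 and 14.20 with TAp63γ, and 12.49, 12.57 and 12.60 with the vector. No array of one group reached into another. SLPI rose by 0.43 ± 0.0541 (1.34-fold, adjusted p = 2.04e-05) with ΔNp63α and by 1.63 ± 0.0541 (3.1-fold, adjusted p = 2.36e-12) with TAp63γ. With TAp63γ its signal was above 99.8% of the probe sets of the array, against 98.2% with the vector (medians over arrays).

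The cascade kallikreins KLK5 and KLK8 moved less. KLK5, which activates the precursor of KLK7, read 7.07, 7.02 and 6.99 with ΔNp63α, 7.55, 7.27 and 7.63 with TAp63γ, and 6.56, 6.71 and 6.85 with the vector. The groups did not overlap. KLK5 rose by 0.32 ± 0.0947 (adjusted p = 0.0183) with ΔNp63α and by 0.78 ± 0.0947 (1.72-fold, adjusted p = 5.57e-06) with TAp63γ. KLK8, a trypsin-like kallikrein of skin and brain, read 7.52, 7.50 and 7.50 with ΔNp63α, 7.87, 7.95 and 7.81 with TAp63γ, and 7.13, 7.13 and 7.28 with the vector. Its 3 groups were also apart, with TAp63γ highest. KLK8 rose by 0.33 ± 0.0881 (adjusted p = 0.00992) with ΔNp63α and by 0.70 ± 0.0881 (1.62-fold, adjusted p = 8.28e-06) with TAp63γ. The call of KLK5 with ΔNp63α was lost without overexpression vector replicate 1 (adjusted p = 0.0902) or ΔNp63α replicate 1 (adjusted p = 0.0567).

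KLK7, the chymotrypsin-like kallikrein of the cascade, did not follow them. It read 6.41, 6.45 and 6.48 with ΔNp63α, 6.58, 6.46 and 6.46 with TAp63γ, and 6.46, 6.49 and 6.48 with the vector. The arrays of the groups lay among each other, all below the median of the array. The median percentile of KLK7 was 41.7 with ΔNp63α, 42.3 with TAp63γ and 42.6 with the vector. The difference from the vector was −0.03 (95% interval −0.18 to 0.12) for ΔNp63α and 0.03 (−0.12 to 0.17) for TAp63γ. KLK11 read 6.25, 6.09 and 6.25 with ΔNp63α, 6.43, 6.25 and 6.33 with TAp63γ, and 5.79, 6.09 and 6.16 with the vector. Its TAp63γ arrays were above the vector arrays, and its ΔNp63α arrays overlapped both. KLK11 was called with TAp63γ (0.33 ± 0.0916, adjusted p = 0.00849) and not with ΔNp63α (0.18 ± 0.0916, adjusted p = 0.163). Without overexpression vector replicate 1, its lowest array, the TAp63γ difference of KLK11 was 0.21 (adjusted p = 0.0547), and it was also 0.21 with array weights (adjusted p = 0.0146). KLK6, a trypsin-like kallikrein, stayed between 5.35 and 5.85 on the 9 arrays of this arm, and was called with neither isoform (adjusted p = 0.496 for ΔNp63α and 0.426 for TAp63γ). Its median percentile was 26.8 with ΔNp63α, 25.4 with TAp63γ and 25 with the vector. For KLK11 the median percentile was 38.1 with ΔNp63α, 40.3 with TAp63γ and 36.2 with the vector, each below that of KLK7. Detection calls were not used, so whether KLK7, KLK11 and KLK6 were above background in this arm is not known.

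Of the Kunitz inhibitors, SPINT1 rose with TAp63γ. SPINT1 read 9.58, 9.42 and 9.14 with ΔNp63α, 10.47, 10.05 and 10.11 with TAp63γ, and 9.27, 9.78 and 9.32 with the vector. The TAp63γ arrays were above all others, while the ΔNp63α and vector arrays overlapped. The change was 0.75 ± 0.144 (1.68-fold, adjusted p = 4.82e-04) with TAp63γ and −0.08 ± 0.144 (adjusted p = 0.745) with ΔNp63α. SPINT2 read between 10.99 and 11.45 with ΔNp63α, between 11.31 and 11.49 with TAp63γ, and between 11.11 and 11.35 with the vector. These ranges overlapped, and SPINT2 was called with neither isoform (adjusted p = 0.83 and 0.331). The spread within a group was wide for both inhibitors, with an SD of up to 0.283 for SPINT1 and 0.246 for SPINT2, against a median residual SD of 0.113 over all genes of the arm.

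**Figure D1:**
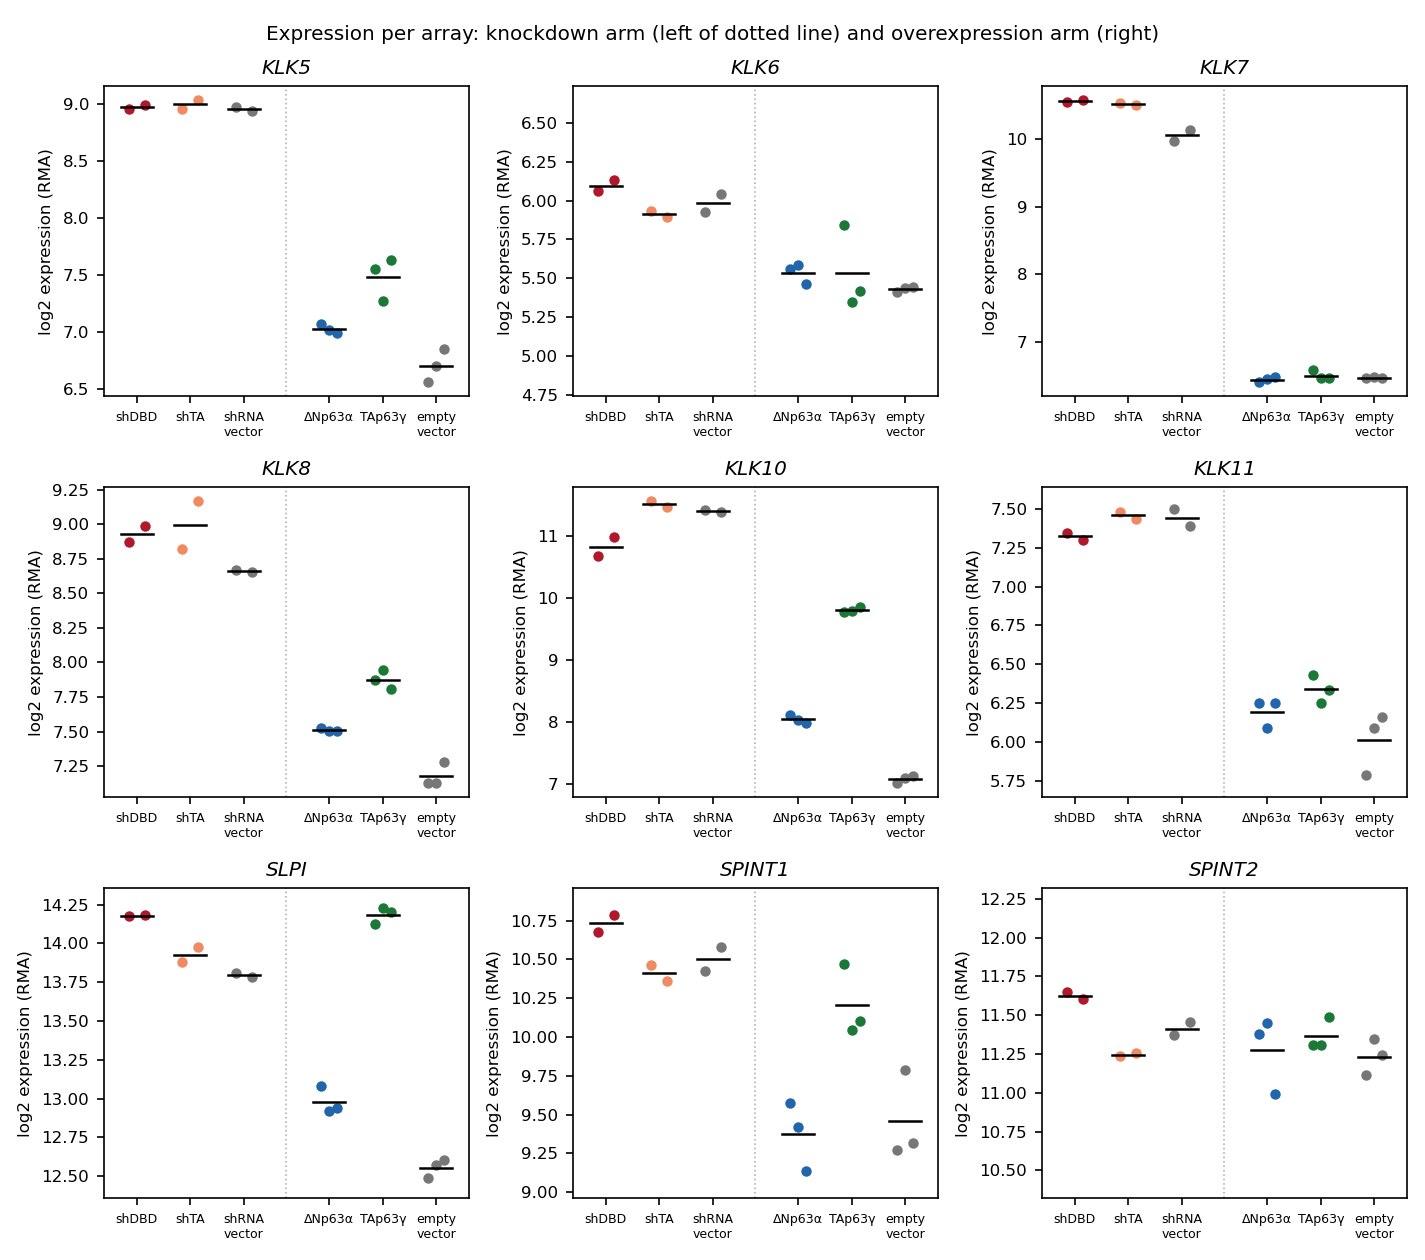
Expression of the 9 genes on each array (log2, RMA values; points are arrays, black lines are group means, 2 arrays per knockdown-arm group and 3 per overexpression-arm group). KLK10 and SLPI separate TAp63γ, ΔNp63α and the vector without overlap, and KLK7 sits between 6.41 and 6.58 on the overexpression arrays and between 9.98 and 10.58 on the knockdown arrays.

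Against the background, 4 of 9 genes were called with ΔNp63α, all higher, where 28.9% of the 11963 genes were called, 12.3% higher and 16.6% lower. With TAp63γ, 6 of 9 were called, all higher, where 43.4% were called, 20.5% higher and 22.8% lower. The median change of the 9 was 0.18 with ΔNp63α and 0.70 with TAp63γ, beside medians over all genes of −0.00 and −0.02. Both comparisons share the 3 vector arrays. Both measured basal markers rose with both isoforms, KRT14 by 1.90 with ΔNp63α and 2.08 with TAp63γ, and KRT5 by 0.40 and 0.998. Of the 4 epithelial markers, KRT18 (−0.78 with ΔNp63α and −0.63 with TAp63γ) and EPCAM (−0.54 and −1.36) fell with both. KRT8 fell with ΔNp63α (−0.30) and rose with TAp63γ (0.41), and CDH1 fell with ΔNp63α (−0.80) and did not pass with TAp63γ (0.12). The 3 immune markers summed to 19.862 to 20.243 with ΔNp63α and 19.771 to 19.876 with TAp63γ, against 20.21 to 20.555 with the vector, with CD14 called lower. The 3 endothelial markers summed to 15.418 to 15.92 with ΔNp63α and 14.791 to 15.22 with TAp63γ, against 14.955 to 15.382 with the vector. Among them PECAM1 was called higher with ΔNp63α (0.31, adjusted p = 0.023) and was not called with TAp63γ. The actin 3′ minus 5′ signal, a measure of RNA quality, averaged 0.162 with ΔNp63α and 0.077 with TAp63γ, against 0.17 with the vector. The part of these in the results was not tested.

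Set directly against each other, the isoforms differed in 5 of the 9 genes, and all 5 were lower with ΔNp63α than with TAp63γ. Of all genes, 39.8% were called in this comparison, 19.2% higher and 20.6% lower with ΔNp63α. KLK10 differed by −1.76 ± 0.0835 (3.4-fold lower with ΔNp63α, adjusted p = 3.59e-10) and SLPI by −1.21 ± 0.0541 (2.31-fold lower, adjusted p = 2.27e-10). SPINT1 differed by −0.83 ± 0.144 (adjusted p = 2.64e-04), KLK5 by −0.46 ± 0.0947 (adjusted p = 0.00108) and KLK8 by −0.37 ± 0.0881 (adjusted p = 0.00337). In each of these 5 genes every ΔNp63α array was below every TAp63γ array. That is a description, and the share of all genes without overlap was not counted. KLK11 (−0.14, 95% interval −0.34 to 0.05), SPINT2 (−0.09, −0.31 to 0.13), KLK7 (−0.06, −0.20 to 0.09) and KLK6 (−0.00, −0.22 to 0.21) did not pass.

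The second probe set of KLK10 gave smaller changes, from low signals. It lay at percentiles 20.1 to 26.1 on the vector arrays, 23.5 to 26.9 with ΔNp63α and 32.6 to 38.6 with TAp63γ. It read 5.40, 5.55 and 5.35 with ΔNp63α, 5.89, 6.24 and 5.93 with TAp63γ, and 5.31, 5.47 and 5.12 with the vector. The TAp63γ arrays were highest, and the ΔNp63α and vector arrays overlapped. In a fit over all probe sets with a single symbol, it was higher with TAp63γ (0.72 ± 0.107, adjusted p = 4.9e-05) and did not pass with ΔNp63α (0.14 ± 0.107, adjusted p = 0.416). With the mean of both probe sets, KLK10 changed by 0.55 with ΔNp63α and by 1.73 with TAp63γ, and differed by −1.17 between the isoforms; the 3 calls held.

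The knockdown arm set an shRNA against every p63 isoform (shDBD) beside one against the transactivating isoforms (shTA). KLK10 fell with shDBD, and KLK7 and SLPI rose. KLK10 read 10.68 and 10.99 with shDBD, 11.57 and 11.47 with shTA, and 11.42 and 11.38 with the vector. The shDBD arrays were the lowest of the 6. KLK10 fell by 0.57 ± 0.102 on the log2 scale with shDBD (SE, n = 2 per group; adjusted p = 7.46e-04) and differed by 0.12 ± 0.102 with shTA (adjusted p = 0.719). Its second probe set also fell with shDBD, reading 6.32 and 6.54, against 6.82 and 6.83 with the vector (−0.40 ± 0.131, adjusted p = 0.047).

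KLK7, not called with either isoform, was the only one of the 9 called with both hairpins. It read 10.54 and 10.58 with shDBD, 10.53 and 10.50 with shTA, and 9.98 and 10.14 with the vector. All 4 hairpin arrays were above both vector arrays. KLK7 rose by 0.50 ± 0.0851 (1.42-fold, adjusted p = 4.57e-04) with shDBD and by 0.46 ± 0.0851 (1.37-fold, adjusted p = 0.00959) with shTA. Both tests use the same 2 vector arrays, whose SD was 0.116. For shTA, leaving out shRNA vector replicate 1 ended the KLK7 call (adjusted p = 0.155), as did leaving out shTA replicate 1 (0.0719) or shTA replicate 2 (0.0723). The shDBD call held in each of these.

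SLPI read 14.17 and 14.18 with shDBD, 13.88 and 13.98 with shTA, and 13.81 and 13.78 with the vector. The shDBD arrays were the highest. SLPI rose by 0.38 ± 0.0662 (1.3-fold, adjusted p = 5.61e-04) with shDBD and did not pass with shTA (0.13 ± 0.0662, adjusted p = 0.445). SLPI was thus higher than its vector with shDBD and, in the other arm, with both isoforms. KLK8 read 8.88 and 8.99 with shDBD, 8.82 and 9.17 with shTA, and 8.67 and 8.66 with the vector. Neither difference of KLK8 passed (0.27 ± 0.108, adjusted p = 0.096 with shDBD, and 0.33 ± 0.108, adjusted p = 0.145 with shTA), although its hairpin arrays were all above the vector arrays. Without shTA replicate 1 the shTA difference of KLK8 was 0.51 (adjusted p = 0.0443), and with array weights both differences passed. The shDBD difference of KLK8 also passed without either shTA array (adjusted p = 0.049 and 0.0488).

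The other members did not pass against the shRNA vector. KLK5 stayed between 8.94 and 9.04 on all 6 knockdown arrays, with differences of 0.02 (95% interval −0.23 to 0.27) for shDBD and 0.04 (−0.21 to 0.29) for shTA. KLK11 read between 7.30 and 7.50 and KLK6 between 5.89 and 6.13 on these arrays. SPINT1 was at 10.68 and 10.79 with shDBD, 10.46 and 10.36 with shTA, and 10.42 and 10.58 with the vector. Its adjusted p was 0.443 with shDBD and 0.9 with shTA, and it passed with shDBD (0.0401) where the arms were fitted separately. SPINT2, whose arrays are given with the hairpin comparison, had an adjusted p of 0.293 with shDBD and 0.654 with shTA, and it too passed with shDBD (0.0218) in that fit.

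In all, 3 of 9 genes were called with shDBD, 2 higher and 1 lower, where 21.3% of all genes were called, 11.1% higher and 10.2% lower. With shTA, 1 of 9 was called, higher, where 2.29% were called, 1.44% higher and 0.853% lower. The median change of the 9 was 0.21 with shDBD and 0.04 with shTA, beside 0.00 and −0.01 over all genes. Of the epithelial and basal markers, EPCAM was called higher (0.78, adjusted p = 0.00286) and KRT14 lower (−0.49, adjusted p = 0.00592) with shDBD, and KRT8 was called lower with shTA (−0.51, adjusted p = 0.0405). Of the 3 immune markers, CD14 was also called higher with shDBD, and the summed log2 level of the 3 was 22.285 to 22.468 with shDBD, against 20.849 to 21.121 with the vector. The endothelial marker PECAM1 was called higher too, and the 3 endothelial markers summed to 17.243 to 17.252 with shDBD and 16.82 to 17.12 with the vector. Their part in these results was not tested. The actin 3′ minus 5′ signal averaged 0.067 with shDBD and 0.102 with shTA, against −0.087 with the vector, and its part was not tested either.

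Between the hairpins, 3 of the 9 genes were called, 2 higher and 1 lower with shDBD, where 18.4% of all genes were called, 9.14% higher and 9.23% lower. KLK10 was lower with shDBD than with shTA (−0.69 ± 0.102, 1.61-fold, adjusted p = 1.85e-04). SLPI was higher with shDBD (0.25 ± 0.0662, adjusted p = 0.0134). SPINT2 read 11.65 and 11.60 with shDBD, against 11.24 and 11.25 with shTA, and its difference of 0.38 ± 0.126 was just called (adjusted p = 0.0479). The vector arrays of SPINT2, at 11.37 and 11.46, lay between the hairpins. The SLPI call was lost without either shDBD array or without shTA replicate 1 (adjusted p = 0.0717, 0.0775 and 0.13), and the SPINT2 call without any single array of either hairpin (0.132 to 0.212). KLK7 did not differ detectably between the hairpins (0.05, 95% interval −0.14 to 0.23).

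**Figure D2:**
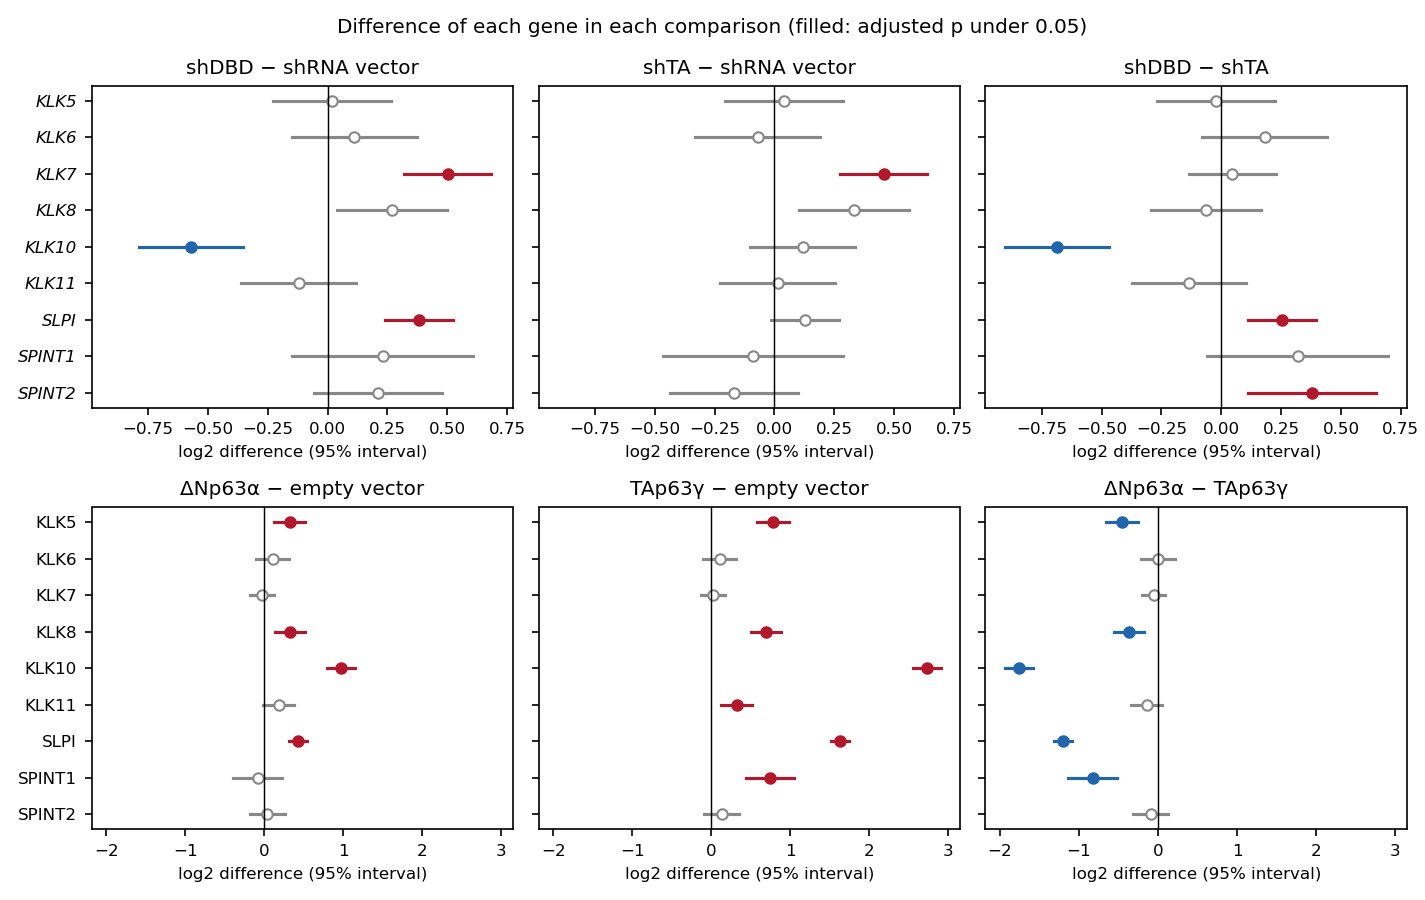
Log2 difference of each gene with its 95% interval from limma in the 6 comparisons (rows of panels: knockdown and overexpression arm, each row with its own scale). Filled points passed an adjusted p of 0.05, red where higher and blue where lower. The 6 filled points of TAp63γ against its vector are all to the right of 0, with KLK10 at 2.73.

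Levels of the same genes in both vector controls were far apart for most of the kallikreins. KLK10 averaged 7.08 ± 0.0629 with the overexpression vector (SD, n = 3) and 11.40 ± 0.024 with the shRNA vector (SD, n = 2). This difference of −4.33 ranked 1 of 11963 genes from the lowest. KLK7 averaged 6.48 ± 0.0133 and 10.06 ± 0.116, a difference of −3.58 that ranked 8, and KLK5 averaged 6.71 ± 0.146 and 8.96 ± 0.0216, a difference of −2.25 that ranked 53. KLK8 (−1.48), KLK11 (−1.43), SLPI (−1.24), SPINT1 (−1.04) and KLK6 (−0.56) were also below the median over all genes of −0.27, and SPINT2 was at −0.18. The difference was not tested, because the arms appear to have been normalized separately, and vector, virus and processing batch cannot be told apart between the arms. The basal keratins KRT5 and KRT14 were lower in the overexpression vector as well, at 12.87 and 11.63, against 14.07 and 13.74 in the shRNA vector.

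The rises of KLK10 with the isoforms began from a lower reading than that of the shRNA vector. This too is a description across the arms that was not tested. With TAp63γ it averaged 9.81 ± 0.0469, and with ΔNp63α 8.04 ± 0.0694, both under the 11.40 of the shRNA vector. SLPI with TAp63γ averaged 14.18 ± 0.0507, beside 13.80 ± 0.0185 for the shRNA vector. KLK7 stayed between 6.41 and 6.58 on all 9 arrays of the overexpression arm.

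**Figure D3:**
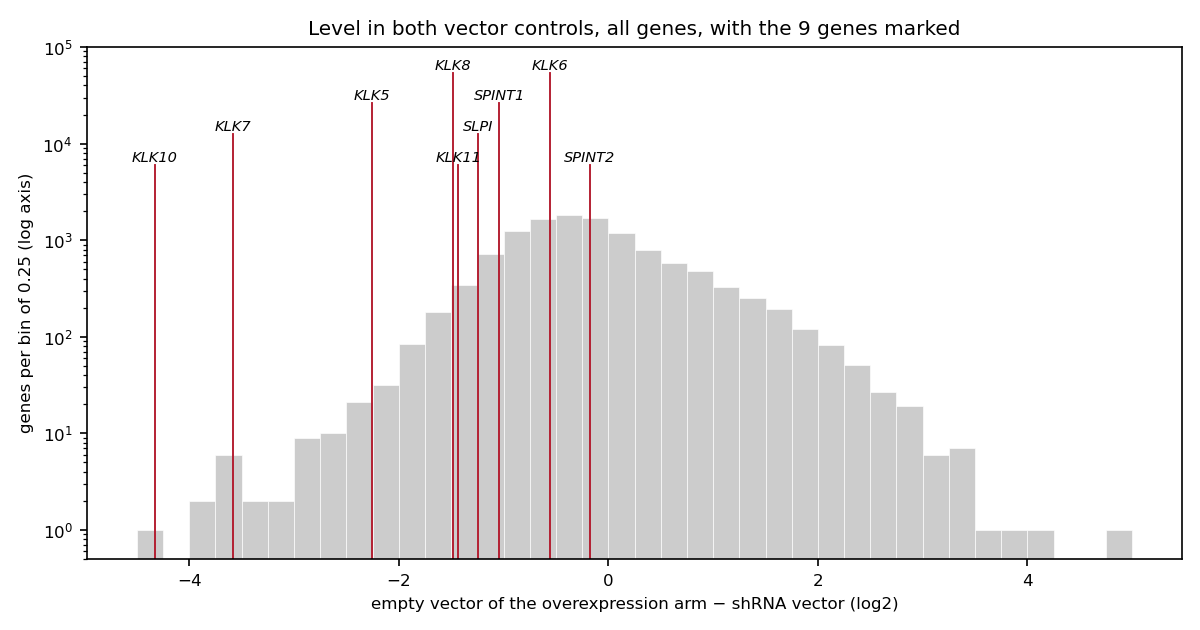
Difference in log2 level between the overexpression vector and the shRNA vector for all 11963 genes (grey bars, 0.25 wide, log vertical axis), with red lines at the 9 genes; the height of a line has no meaning. KLK10 lies at −4.33, in the lowest bin, and SPINT2 at −0.18, near the bulk.

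The kallikrein genes stand in a row on chromosome 19, and 13 of 15 were measured. In the order of the chromosome, the genes called with TAp63γ were KLK5, KLK8, KLK10 and KLK11, with the uncalled KLK6 and KLK7 between KLK5 and KLK8. KLK9, between KLK8 and KLK10, was not analysed here. Of the 7 measured kallikreins outside the 6 (KLK1, KLK2, KLK3, KLK12, KLK13, KLK14 and KLK15), none was called with either isoform, where their median changes were 0.05 with ΔNp63α and −0.05 with TAp63γ. At an unadjusted p under 0.05, 0 of these 14 limma tests passed. Of all genes, 28.9% were called with ΔNp63α and 43.4% with TAp63γ. With the overexpression vector, the median percentiles of these 7 ran from 30.9 (KLK15) to 51.9 (KLK1). Without detection calls, whether they were above background is not known. KLK14, another epidermal kallikrein, was called lower with shDBD than with the vector (−0.27 ± 0.089, adjusted p = 0.0397), a call lost without any single array of shDBD or of the vector (adjusted p = 0.0851 to 0.201). KLK1, the kidney and salivary gland kallikrein, was called in none of the 6 comparisons.

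**Figure D4:**
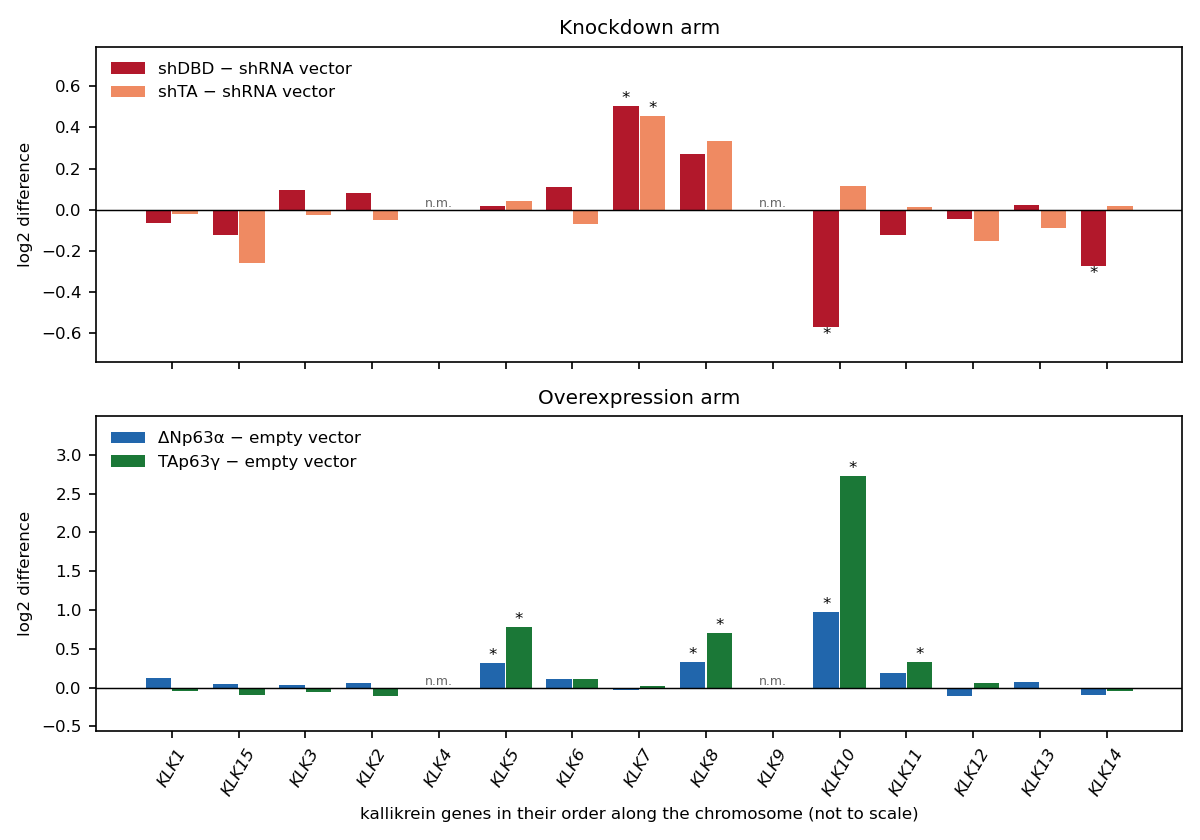
Log2 difference from the vector of its arm for kallikrein genes in chromosomal order (distances not to scale; n.m., not measured here; asterisks mark an adjusted p under 0.05). Positive bars with asterisks in the overexpression arm are at KLK5, KLK8, KLK10 and KLK11, and KLK7 has them in the knockdown arm.

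Other secreted protease inhibitors were counted as a list. Of 13 measured, 7 were called higher and 1 lower with TAp63γ, and 5 higher and 0 lower with ΔNp63α, with medians of 0.35 with TAp63γ and 0.13 with ΔNp63α. Of all genes, 20.5% were higher and 22.8% lower with TAp63γ, and 12.3% higher and 16.6% lower with ΔNp63α. With shDBD, 4 were higher and 2 lower, where 11.1% and 10.2% of all genes were, and with shTA 2 were higher and 0 lower, where 1.44% and 0.853% were. PI3, or elafin, an elastase inhibitor related to SLPI, averaged 11.52 ± 0.358 with ΔNp63α and 13.76 ± 0.131 with TAp63γ, against 8.79 ± 0.126 with the vector. Its changes were 2.73 and 4.97, and PI3 also rose with shDBD (0.57 ± 0.16, adjusted p = 0.0188), a call lost without any single array of shDBD or of the vector (adjusted p = 0.057 to 0.13). SERPINA1, which encodes the elastase inhibitor α1-antitrypsin, rose by 0.86 ± 0.144 with ΔNp63α and by 3.27 ± 0.144 with TAp63γ, and fell by 0.95 on the log2 scale with shDBD (adjusted p = 9.81e-04). SPINK4, a Kazal-type inhibitor, was called in no comparison. SERPINA3, α1-antichymotrypsin, rose with TAp63γ (1.54 ± 0.0737) and with shTA (1.10 ± 0.0902, adjusted p = 7.06e-06).

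TFPI2, a Kunitz inhibitor of the matrix, rose by 6.50 with ΔNp63α and by 6.54 with TAp63γ, and differed by −0.04 between the isoforms (adjusted p = 0.796). Its vector arrays lay between 4.03 and 4.41, below the 20th percentile of the array, so these sizes are approximate; with values floored at that percentile TFPI2 changed by 5.65 and 5.69. Progranulin, the GRN product, is a substrate of elastase that SLPI binds and protects. GRN averaged 10.23 ± 0.191 with ΔNp63α and 11.49 ± 0.146 with TAp63γ, against 9.72 ± 0.0749 with the vector. GRN also rose with shDBD (0.49 ± 0.116, adjusted p = 0.00657), and was higher with shDBD than with shTA (0.60, adjusted p = 0.00172). CTSG, a leukocyte protease that SLPI inhibits, was called in no comparison.

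Another list held the proteases that SPINT1 and SPINT2 restrain and the growth factor axis beyond them. Of 14 measured genes, 4 were higher and 0 lower with ΔNp63α, and 2 were higher and 3 lower with TAp63γ, where 28.9% of all genes were called with ΔNp63α and 43.4% with TAp63γ. With shDBD 0 were higher and 3 lower, and with shTA 0 were higher and 1, MST1R, lower, where 21.3% and 2.29% of all genes were called. The shTA call of MST1R was lost without any single array of shTA or of the shRNA vector (adjusted p = 0.0734 to 0.297) and without overexpression vector replicate 3 (0.0568). ST14, which encodes matriptase, rose by 0.60 ± 0.105 with ΔNp63α and by 0.67 ± 0.105 with TAp63γ. TMPRSS11E, another membrane serine protease, rose by 0.80 ± 0.0739 with TAp63γ from a level below the 20th percentile. It was also among the 4 called with ΔNp63α (0.37 ± 0.0739), with every array of both groups below that percentile. With values floored there, this ΔNp63α call was lost (0.0246, adjusted p = 0.465). MET, the receptor of hepatocyte growth factor, fell with TAp63γ (−1.10 ± 0.0911, adjusted p = 8.3e-08). MST1R, the receptor of the related macrophage-stimulating protein, fell with TAp63γ (−0.61 ± 0.0796) and rose with ΔNp63α (0.26 ± 0.0796, adjusted p = 0.0229), a call lost without overexpression vector replicate 1 or without ΔNp63α replicate 1 or 3 (adjusted p = 0.0904, 0.054 and 0.0596). TMPRSS2 was called in none of the 6 comparisons.

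A further list held 7 measured kallikrein substrates and receptors: F2R, DSG1, DSC1, CDSN, CAMP, DSG3 and CDH1. Of these, 1 was called with TAp63γ, higher, and 1 with ΔNp63α, lower, where 43.4% and 28.9% of all genes were called. None was called with shDBD or shTA against the vector, and DSG1 was lower with shDBD than with shTA (−0.44 ± 0.0893, adjusted p = 0.00252). DSG3, a desmosomal cadherin, rose with TAp63γ (0.49 ± 0.168, adjusted p = 0.0269; lost without replicate 1 or 3 of either group, at 0.0646 to 0.109), and CDH1, or E-cadherin, fell with ΔNp63α (−0.80 ± 0.0842). DSG1 and DSC1, desmosomal cadherins of the upper epidermis, were below the 20th percentile on all 15 arrays, and with values floored there the DSG1 difference between the hairpins was 0.0049 (adjusted p = 0.937). CDSN, the corneodesmosin that KLK5 and KLK7 degrade, was called in no comparison.

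The 9 genes did not vary as a single group over the arrays. After the mean of its arm was subtracted from each value, KLK10 correlated with KLK5 at 0.925, with SLPI at 0.918, with KLK8 at 0.836 and with KLK11 at 0.758 (Pearson's r over 15 arrays, a description in which the points share groups and arms). KLK7 correlated with KLK10 at −0.02 and with SLPI at 0.209, and KLK6 with KLK10 at 0.168. SPINT1 correlated with SLPI at 0.821, and the closest of the 9 to SPINT2 was SPINT1 at 0.561.

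Over all genes, the patterns most like that of KLK10 were those of GJB5, a gap junction connexin (r = 0.993), and SLC2A1, the glucose transporter GLUT1 (r = 0.992). SLC2A1 changed by 0.79 with ΔNp63α, 2.09 with TAp63γ and −0.60 with shDBD, beside 0.97, 2.73 and −0.57 for KLK10. For SLPI they were MFAP5, a microfibril glycoprotein (r = 0.988), and SERPINB7, a clade B serpin (r = 0.985). For KLK7 they were ALDH5A1 (0.912) and HIPK2 (0.907), for KLK5 CEACAM1 (0.966) and MSRB1 (0.962), and for KLK8 AKR1B10 (0.952) and PDZK1IP1 (0.946). For SPINT1 they were NPLOC4 (0.971) and CLPTM1 (0.966), for SPINT2 C2CD3 (0.903) and VCPIP1 (0.901), for KLK11 ASPHD1 (0.856) and HSPA6 (0.854), and for KLK6 MAPKAPK2 (0.901) and ISLR (0.893). These are likenesses over 15 arrays of 6 groups and were not tested. KLK6, MAPKAPK2 and ISLR were called in no comparison, and each spread most within the TAp63γ group (SD 0.27, 0.212 and 0.17). In that group KLK6 read 5.85, 5.35 and 5.42, so its likenesses may rest largely on 1 array.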

How the data were processed

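Total RNA of 15 MCF-10A cultures in 6 groups was hybridised to Affymetrix arrays. The values are log2 expression deposited by the authors, and the submitters' processing notes name RMA, whose version is not given in the sources used here. Scanner files and detection calls were not used. Of 22277 probe sets, 19064 carried a single gene symbol, and the one with the highest mean was kept for each of 11963 genes. limma 3.58.1 in R 4.3.3 fitted group means over all 15 arrays (9 residual degrees of freedom), with a variance trend. Tests were two-sided, and p-values were adjusted by Benjamini-Hochberg over all 11963 genes within each comparison, with a threshold of 0.05. The number of arrays limits the precision. The fit was tested on simulated data. The members and the gene lists were chosen with earlier results of these data known. All 9 members are described. From each list the text names up to 4 genes, those with the largest change among genes called with no overlap between the groups' arrays, plus the uncalled gene with the highest level; for each member it names the 2 genes of most like pattern. Marker genes and DSC1 were added after their values were seen. Promoter sequences are from RefSeq. The transcript of the targeted gene was not analysed here.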

Additional observations from a re-analysis of the deposited data

Results flagged for a closer look

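In 3 cases the treatments of an arm differed by direct test in limma while their differences from the vector had opposite signs, of which at most 1 passed. KLK10 differed by −0.69 between shDBD and shTA (adjusted p = 1.85e-04), at −0.57 (adjusted p = 7.46e-04) and 0.12 (0.719) from the shRNA vector. SPINT2 differed by 0.38 between shDBD and shTA (adjusted p = 0.0479), at 0.21 and −0.17 from the vector, neither of which passed. SPINT1 differed by −0.83 between ΔNp63α and TAp63γ (adjusted p = 2.64e-04), at −0.08 (0.745) and 0.75 (4.82e-04) from the overexpression vector. The ΔNp63α difference of SPINT1 ran from −0.18 to 0.10 over the alternatives. Both treatments of an arm share their vector arrays.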

How the results depend on the processing

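Each result was recomputed under 11 alternatives and with each of 15 arrays left out. No called difference of a member changed sign; 18 values of 9 uncalled differences did, and none of them passed. Of the members' values, 1370 stayed on their side of the threshold, 25 calls were lost and 9 were gained. Of the 9 members, 5 were called with shDBD when the arms were fitted separately, and 2 with shTA under array weights. Leaving out an array gave 3 to 4 called with shDBD, 0 to 1 with shTA, 1 to 3 between the hairpins, 3 to 4 with ΔNp63α, 5 to 6 with TAp63γ, and 5 to 5 between the isoforms. The 0 with shTA came without shRNA vector replicate 1 or shTA replicate 2. SPINT2 between the hairpins was lost in 16 of these 26 refits (adjusted p = 0.0504 to 0.212), the replicate block among them (0.0852). DSG1 reversed when values were floored at the 20th percentile, to 0.0049 between shDBD and shTA and 0.0468 between ΔNp63α and TAp63γ; it was below that percentile on all 15 arrays. Over all genes, 274 were called with shTA, against 1064 with the arms fitted separately and 87 without shTA replicate 2; 2543 with shDBD, against 1650 without shRNA vector replicate 1; and 2197 between the hairpins, against 3359 with the arms fitted separately and 1348 without shDBD replicate 1. Without ΔNp63α replicate 3, an array of the other arm, 472 were called with shTA, 2968 with shDBD and 2588 between the hairpins. The main fit shares its estimate of spread between the arms, whose median residual SD was 0.0821 for knockdown and 0.113 for overexpression. The cause was not tested. Replicate numbers did not pair the samples: deviations of same-numbered arrays correlated at 0.001 to 0.069 in the knockdown arm and −0.628 to 0.476 in the overexpression arm. Differently numbered arrays of the overexpression arm correlated at −0.725 to 0.675, highest for vector replicate 1 with ΔNp63α replicate 3. A grouping of arrays other than by replicate number was neither modelled nor tested. With the replicate block, 3, 1, 2, 4, 6 and 5 members were called with shDBD, with shTA, between the hairpins, with ΔNp63α, with TAp63γ and between the isoforms, and 150 genes with shTA.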
